A study of Mus musculus with 47 samples.

Results

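The 10 genes described here, Acta2, Des, Vim, Pdgfra, Pdgfrb, Tgfb1, Tgfb2, Tgfb3, Ctgf and Lox, mark hepatic stellate cells or belong to the Tgf-beta pathway of liver fibrosis. They were chosen by name, as fibrosis genes other than collagens, from 22350 protein-coding genes on chromosomes 1 to 19 and X. Each was measured by the percent of its gene span inside H3K27me3 regions and by the H3K27ac and H3K4me1 peaks within 10 kb of that span. Values were compared between control and double knockout liver, for males and females separately.

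ChIP-seq was carried out on frozen livers of 7 week old mice. Floxed control mice carried Ezh2 f/f alleles and no Cre. Double knockout mice (DKO) were Ezh1-/- and Ezh2 f/f with an Alb-Cre transgene, so that Ezh1 was missing from all cells whereas Ezh2 was deleted in hepatocytes, where the albumin promoter drives Cre. Stellate, endothelial and immune cells of a DKO liver thus lacked Ezh1 but kept Ezh2, and the chromatin of all cell types of the liver entered the same sample. Each of the 4 groups had 4 livers per mark, except 3 for H3K4me1 in DKO female liver in the sample records. The reads of a group were concatenated before peaks were called, so that each mark has 1 list per group. The values given here therefore have no replicate error and no test, and the depth behind each list is unknown. A position outside the peaks of a list was not called, which does not show that the mark was absent.

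H3K27me3 is the repressive mark placed by Ezh1 and Ezh2, the catalytic subunits of polycomb repressive complex 2, and it typically covers genes that are silent in a tissue. H3K27ac marks active promoters and enhancers, and H3K4me1 marks enhancers that are active or primed. Quiescent stellate cells store vitamin A. On liver injury they become contractile, collagen-producing myofibroblasts under the control of Tgf-beta and Pdgf, and hepatocytes, the major cell type of the liver, normally keep most of this program silent.

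The promoters of 4 of the genes are shown because the genes differed in what became of H3K27me3 at or around their starts. In DKO liver no region remained at the starts of Vim and Tgfb1, the region at the start of Acta2 was shorter, and Des stayed inside a wide region. Each sequence is the 250 bases before the annotated start, read 5′ to 3′ on the strand of the gene from the NCBIM37 (mm9) genome, with CG dinucleotides, the bases that polycomb targets in mammals tend to be rich in, in capitals.
Vim, chr2:13495304-13495553, plus strand: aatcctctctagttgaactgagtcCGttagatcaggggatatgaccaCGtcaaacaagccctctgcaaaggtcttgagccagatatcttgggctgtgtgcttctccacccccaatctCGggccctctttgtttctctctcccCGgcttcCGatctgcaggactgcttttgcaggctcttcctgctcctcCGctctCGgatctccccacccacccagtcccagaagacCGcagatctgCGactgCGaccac
Tgfb1, chr7:26471771-26472020, plus strand: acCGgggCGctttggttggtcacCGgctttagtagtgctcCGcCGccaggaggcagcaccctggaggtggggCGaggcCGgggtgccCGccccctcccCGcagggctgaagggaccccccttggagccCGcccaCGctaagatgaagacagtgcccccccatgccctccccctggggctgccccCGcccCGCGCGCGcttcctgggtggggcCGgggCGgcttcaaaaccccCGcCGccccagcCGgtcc
Acta2, chr19:34329827-34330076, minus strand: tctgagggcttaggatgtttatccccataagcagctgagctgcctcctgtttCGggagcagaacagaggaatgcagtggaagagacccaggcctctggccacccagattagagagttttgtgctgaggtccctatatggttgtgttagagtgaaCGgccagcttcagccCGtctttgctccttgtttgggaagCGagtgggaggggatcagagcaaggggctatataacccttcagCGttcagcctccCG
Des, chr1:75356654-75356903, plus strand: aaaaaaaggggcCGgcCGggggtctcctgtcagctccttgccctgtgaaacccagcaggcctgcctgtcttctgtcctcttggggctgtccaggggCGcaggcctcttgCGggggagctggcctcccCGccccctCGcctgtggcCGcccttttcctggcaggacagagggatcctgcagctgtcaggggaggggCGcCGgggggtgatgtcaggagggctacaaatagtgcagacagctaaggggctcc
The Tgfb1 promoter held 21 CG dinucleotides in these 250 bases, Vim held 10, Des 9 and Acta2 6, beside a median of 8 over the 22350 promoters. Over the 1001 bp around the start, the observed to expected CpG ratio was 0.71 at Des, 0.696 at Tgfb1, 0.529 at Vim and 0.337 at Acta2. The ratio was 0.6 or more at 4 of the 10 genes and at 45.6% of all promoters. Of the 4 genes shown, Des kept its region and Tgfb1 lost it, and both had a ratio above 0.6. The 6 genes not shown had a region at the start in every list. Their ratios were 0.418 at Pdgfra, 0.3945 at Pdgfrb, 0.527 at Tgfb2, 0.661 at Tgfb3, 0.6555 at Ctgf and 0.538 at Lox. The motif CCGCCC, searched on both strands, occurred 5 times in the 250 bases at Tgfb1 and 2 times at Des, and in 39.6% of all such promoters. The motif GGAATG, the core of TEAD factor sites, searched on both strands, occurred 3 times in the 250 bases before Ctgf, 1 time before Acta2 and 1 time before Tgfb3, and in 11.4% of all promoters. RefSeq promoters of the GRCm38.p6 assembly could be placed in mm9 for 6 of the 10 genes, and the RefSeq start lay within 40 bp of the annotated one for 5 of them. For Vim it lay 384 bp further downstream, inside the annotated gene.

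H3K27me3 regions covered most or all of each of the 10 genes in control liver. In DKO liver the called coverage was 0% or reduced at some of them and changed little at the others. Since the lists hold no signal strength, equal coverage does not show an equal amount of the mark. In control male liver all 10 were covered to 50% or more of their span, and likewise in control female liver, beside 29.9% and 29.8% of all protein-coding genes. In DKO liver 7 of the 10 were covered to this extent in males and 6 in females, beside 32.5% and 28.8% of all genes. The median coverage of the 10 genes was 100% in both control lists, 95.4% in DKO male and 69.8% in DKO female liver, whereas the median over all genes was 0% in each list. Coverage was lower by 25 percentage points or more in DKO liver at 3 of the 10 genes in males (Acta2, Vim and Tgfb1) and at 5 in females (Acta2, Vim, Tgfb1, Tgfb2 and Tgfb3). Over all genes this share was 6.08% in males and 7.59% in females. In females 2 genes were lower when coverage was taken over 3 kb on each side of the start, and 3 with a limit of 50 points. A gene without the mark cannot lose it, and among genes covered to 50% or more in control liver the share was 16.8% of 6693 genes in males and 20.7% of 6657 in females. Coverage higher by 25 points or more was not possible at any of the 10 genes, since each was covered to 77.1% or more in control liver. The shares of all genes with such a rise, 9.87% in males and 6.3% in females, therefore allow no comparison with them. The median change of the 10 genes was 0 points in males and -20.6 in females, and that of the covered genes was 0 points in both sexes. In bulk liver, fewer cells carrying the mark and less of the mark per cell cannot be told apart.

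**Figure D1:**
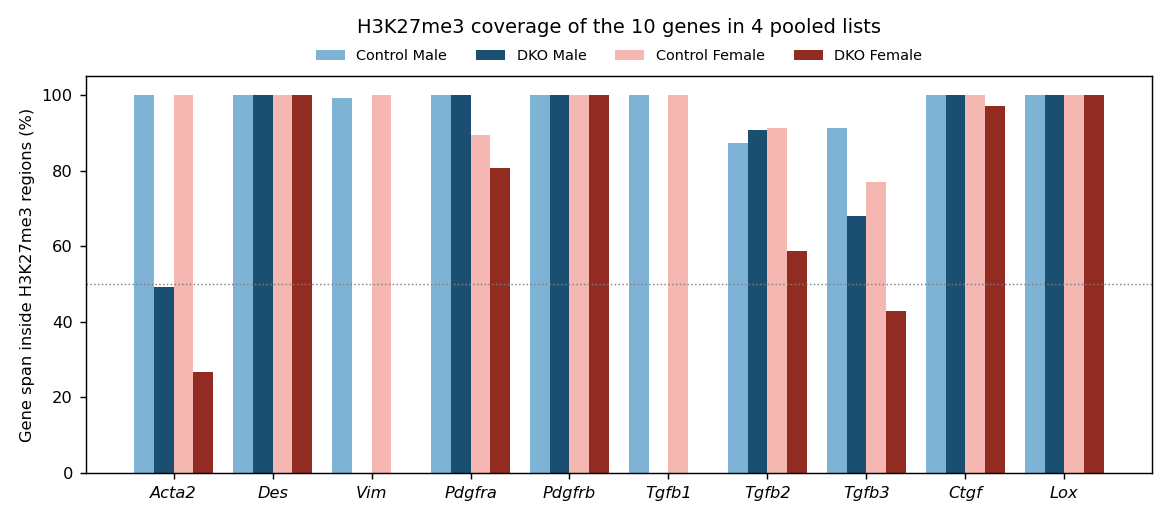
Percent of each gene span inside H3K27me3 regions (vertical axis) for the 10 genes, with 1 bar per pooled list and a dotted line at 50%. All control bars stand at 77.1% or more, Vim and Tgfb1 have no bar in either DKO list, and Des, Pdgfrb and Lox stand at 100% in each of the 4 lists.

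The cytoskeletal genes of the set took 3 different courses. Vim encodes vimentin, the intermediate filament protein of mesenchymal and endothelial cells, and lies at chr2:13495554-13504453 on the plus strand. Its H3K27me3 coverage was 99.4% in control male, 0% in DKO male, 100% in control female and 0% in DKO female liver. In both sexes the gene was inside a region in the control list alone. With equal numbers of the widest regions in each list, the change was -99.4 points in males and 0 points in females. That region was 14.4 kb wide in both control lists, from 5.55 kb before the start to 8.85 kb after it in males. A separate region beyond the 3′ end of the gene was called in all 4 lists, with a width of 24.8 kb in control male, 23.6 kb in DKO male, 16 kb in control female and 24 kb in DKO female liver. The absence of a region in DKO liver thus concerned Vim and not its downstream neighbourhood. H3K27ac was called over an exon at the start of Vim in DKO male liver (898 bp), in control female liver (714 bp) and in DKO female liver (786 bp), and not in control male liver. H3K4me1 was called there in all 4 lists, as 2 peaks in control male and 1 in each of the others.

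Acta2 encodes smooth muscle alpha-actin, the standard marker of activated stellate cells, and lies at chr19:34315580-34329826 on the minus strand. Its coverage was 100% in control male, 49.3% in DKO male, 100% in control female and 26.9% in DKO female liver. Both DKO values were below both control values, and the start of the gene was inside a region in all 4 lists. The region at the start was 127.6 kb wide in control male and 21.6 kb in DKO male liver, and 24.4 kb in control female and 13.6 kb in DKO female liver. In males its 3′ edge moved from 93.8 kb to 7.03 kb past the start, and in females from 17.8 kb to 3.83 kb. In control female liver a separate region of 74 kb followed, from 19.8 to 93.8 kb past the start. Its far edge was that of the control male region, so the narrower control female region does not show a smaller covered stretch. The neighbouring gene Stambpl1, downstream of Acta2, went from 100% to 8.49% coverage in males and from 95.8% to 0% in females. Over the 3 kb on each side of the start the Acta2 coverage was the same in control and DKO liver of each sex, so that the difference lay further from the start. On the upstream side, the region of control male liver reached 33.8 kb before the start and that of DKO male liver 14.6 kb. In control female liver another separate region lay from 33.8 to 8.18 kb before the start, and in DKO female liver the region at the start reached 9.77 kb before it.

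Within the part of Acta2 that was left without an H3K27me3 region in DKO liver, an H3K27ac peak was called in both DKO lists and in neither control list. It lay in an intron, 11.3 kb downstream of the start in DKO male liver (chr19:34318395-34318655) and 11.4 kb downstream in DKO female liver (chr19:34318224-34318670). Neither peak touched an H3K27me3 region of its own list. H3K4me1 was called at the same place in DKO male and control female liver, and not in control male or DKO female liver. The sequence under the shorter, male peak is given because it is the one place in Acta2 called for H3K27ac in these lists. It is 261 bases long, read 5′ to 3′ on the minus strand of mm9, with its only CG dinucleotide in capitals.
Acta2 intron: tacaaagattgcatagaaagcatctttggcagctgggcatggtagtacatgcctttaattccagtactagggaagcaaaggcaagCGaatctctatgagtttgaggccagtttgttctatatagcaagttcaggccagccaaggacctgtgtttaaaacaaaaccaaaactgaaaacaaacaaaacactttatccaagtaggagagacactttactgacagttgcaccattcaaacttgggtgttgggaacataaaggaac
None of the 3 further motifs searched, TGANTCA (AP-1), GGAATG on both strands and the CArG box of serum response factor, occurred in it. They occurred in 6.96%, 13.8% and 1.15% of 55903 windows of this length centred on the H3K27ac peaks of DKO male liver, whereas 92.6% of these windows held a CG.

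Des encodes desmin, the muscle type intermediate filament protein that marks rodent stellate cells, and lies at chr1:75356904-75365154 on the plus strand. It was covered to 100% in each of the 4 lists. The region holding its start was 339.6 kb wide in control male, 303.2 kb in DKO male, 116 kb in control female and 113.2 kb in DKO female liver, and the neighbouring muscle gene Speg was covered to 100% in all 4. No H3K27ac peak was called within 10 kb of Des in 3 of the lists, and 1 of 655 bp, 9.8 kb downstream of the start and beyond the end of the gene, was called in DKO female liver. It lay inside the H3K27me3 region of that list.

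**Figure D2:**
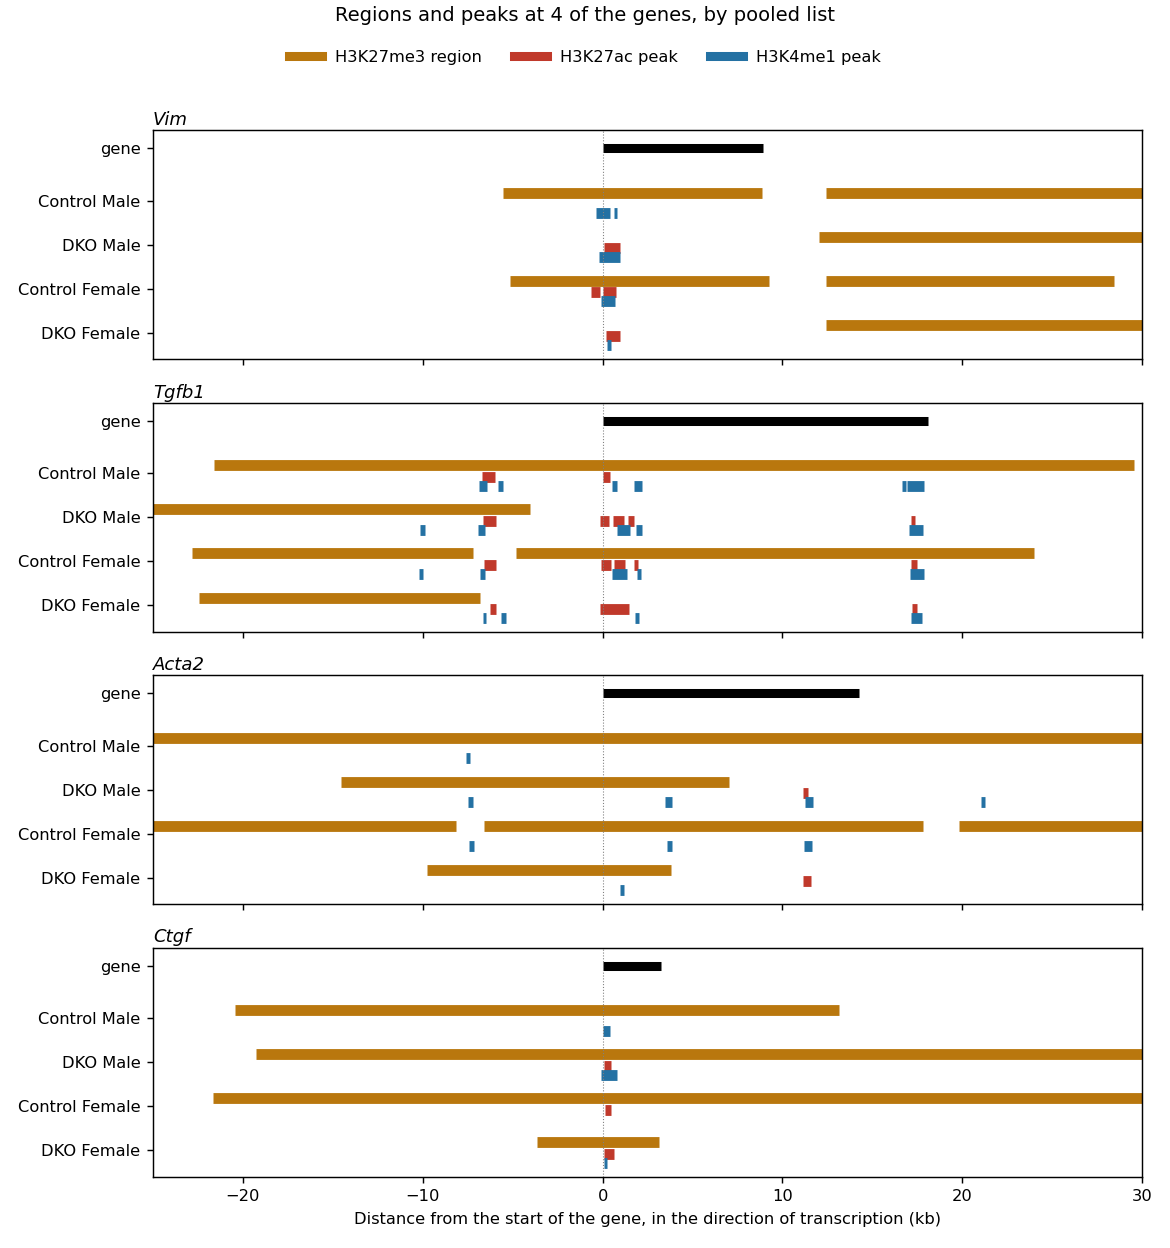
Positions of H3K27me3 regions, H3K27ac peaks and H3K4me1 peaks in the 4 pooled lists at Vim, Tgfb1, Acta2 and Ctgf, against the distance in kb from the start of each gene, with the gene span as a black bar; peaks are drawn within 10 kb of the gene. Vim and Tgfb1 have no H3K27me3 region over the gene in the DKO lists, Acta2 has one around the start, and Ctgf has one in all 4 lists, 6.8 kb wide in DKO female liver.

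The receptors of the set stayed largely inside called H3K27me3 regions. Pdgfra encodes Pdgf receptor alpha (chr5:75548316-75594229, plus strand). Its coverage was 100% in both male lists, 89.5% in control female and 80.8% in DKO female liver. Pdgfrb encodes Pdgf receptor beta, which mediates the mitogenic response of stellate cells to Pdgf (chr18:61204804-61244715, plus strand), and was covered to 100% in all 4 lists. The 2 female values of Pdgfra were below its male values, and neither receptor changed by 25 points. The region at the start of Pdgfrb was 280 kb wide in control male, 258.4 kb in DKO male, 166 kb in control female and 257.2 kb in DKO female liver. Pdgfra had no H3K27ac peak within 10 kb in control male liver, 3 in DKO male, 2 in control female and 3 in DKO female liver. The peaks in the first part of the gene, 2.06 to 4.34 kb past the start, were called in the 3 lists other than control male. All of them overlapped the H3K27me3 region of their own list. Pdgfrb had 1 H3K27ac peak, 198 bp wide and beyond the 3′ end of the gene, in DKO female liver and none in the other lists. H3K4me1 was called 2.3 to 2.4 kb upstream of Pdgfrb in DKO male and in DKO female liver and in neither control list.

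The 3 ligand genes differed from one another in H3K27me3. Tgfb1, the main profibrotic isoform in liver (chr7:26472021-26490096, plus strand), was covered to 100% in control male, 0% in DKO male, 100% in control female and 0% in DKO female liver. In both sexes the gene was wholly inside a region in control and wholly outside in DKO liver. In control male liver the region ran from 21.6 kb before the start to 29.6 kb after it, and in DKO male liver the nearest region ended 4.02 kb before the start. In females the control region reached from 4.82 kb before the start to 24 kb after it, and the nearest region in DKO liver ended 6.82 kb before the start. A separate upstream region of control female liver ended 7.22 kb before the start. The upstream neighbour B9d2 went from 100% to 33.8% in males and from 81% to 0% in females, and the downstream neighbour Ccdc97 from 68.6% to 0% in males, with 0% in both female lists.

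H3K27ac was called at the start of Tgfb1 in all 4 lists, also where H3K27me3 covered the gene, which in bulk tissue may stem from different cells. Within 10 kb, Tgfb1 had 2 H3K27ac peaks in control male, 5 in DKO male, 5 in control female and 3 in DKO female liver. At the start of the gene, 1 peak of 1604 bp in DKO female liver stood where control female liver had 2 peaks of 552 and 597 bp, so that part of the lower number came from joined peaks. A peak about 17.3 kb past the start, near the 3′ end of the gene, was called in the 3 lists other than control male. For H3K4me1 the numbers near Tgfb1 were 6, 5, 5 and 4.

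Tgfb2 (chr1:188447065-188529871, minus strand) was covered to 87.3% in control male, 90.8% in DKO male, 91.3% in control female and 58.8% in DKO female liver. The DKO female value stood below the other 3, and the change in males was 3.55 points upward. In control female liver a region of 75.2 kb held the start, and in DKO female liver a region of 18.4 kb held it with another of 33.2 kb further along the gene. Of its 3 H3K27ac peaks in control female liver, 2 lay in an intron 22.9 to 23.6 kb past the start. Peaks at this place were called in all 4 lists, and the DKO female peak at 23.0 kb lay in the gap between the shortened regions. H3K27ac peaks within 10 kb numbered 2 in control male, 3 in DKO male, 3 in control female and 5 in DKO female liver, and H3K4me1 peaks 6, 6, 5 and 4. The direction of the female H3K27ac difference was not stable, since the change of 2 peaks became -3 when every list was reduced to its widest 29359 peaks and 0 with peaks within 1 kb merged.

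Tgfb3 (chr12:87397694-87419991, minus strand) was covered to 91.4% in control male, 68.1% in DKO male, 77.1% in control female and 43% in DKO female liver. The male change of -23.3 points was just under the limit of 25 and the female change was -34.1 points. The region at the start was of like width in the 4 lists (26, 25.6, 22.8 and 23.2 kb) but lay further upstream in DKO liver, where it ended 15.2 kb past the start in males and 9.59 kb in females, against 20.4 and 17.2 kb in control liver. H3K27ac was called at or just before the start in all 4 lists, inside the region of each list. H3K4me1 peaks within 10 kb numbered 4 in control male, 5 in DKO male, 3 in control female and 1 in DKO female liver. In DKO female liver no H3K4me1 peak was called within 1 kb of the starts of Tgfb1, Tgfb2 and Tgfb3, whereas each of the other 3 lists had at least 1 such peak at each of these starts. Acta2 and Ctgf went the other way, with an H3K4me1 peak within 1 kb of the start in DKO female and none in control female liver. Over all genes the share with such a peak was 39.8% in control female and 36.2% in DKO female liver.

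Of the target and matrix genes, Lox was covered alike in all 4 lists, whereas the female value of Ctgf depended on the processing. Ctgf, the matricellular connective tissue growth factor and a direct target of Tgf-beta signalling (chr10:24315248-24318489, plus strand), was covered to 100% in control male, 100% in DKO male, 100% in control female and 97.3% in DKO female liver. The region around it nevertheless differed, with a width of 33.6 kb in control male, 70.4 kb in DKO male, 62 kb in control female and 6.8 kb in DKO female liver. Since Ctgf is short, the gene remained nearly covered in DKO female liver by the narrowest region among the 8 genes with a region at the start in that list. Over the gene span plus 3 kb on each side, its coverage changed by -33.4 points in females, and with equal numbers of the widest regions in each list the change over the gene was -100 points, since the narrow region of DKO female liver was left out. H3K27ac was called at the start of Ctgf, over an exon, in DKO male (391 bp), control female (345 bp) and DKO female liver (544 bp), and not in control male liver. Lox, the lysyl oxidase that cross-links collagen and elastin (chr18:52675723-52689521, minus strand), was covered to 100% in all 4 lists. Its region was 53.6 kb wide in control male, 46 kb in DKO male, 47.2 kb in control female and 46 kb in DKO female liver. No H3K27ac peak was called within 10 kb of Lox in any list, and 1 H3K4me1 peak stood at its start in each.

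**Figure D3:**
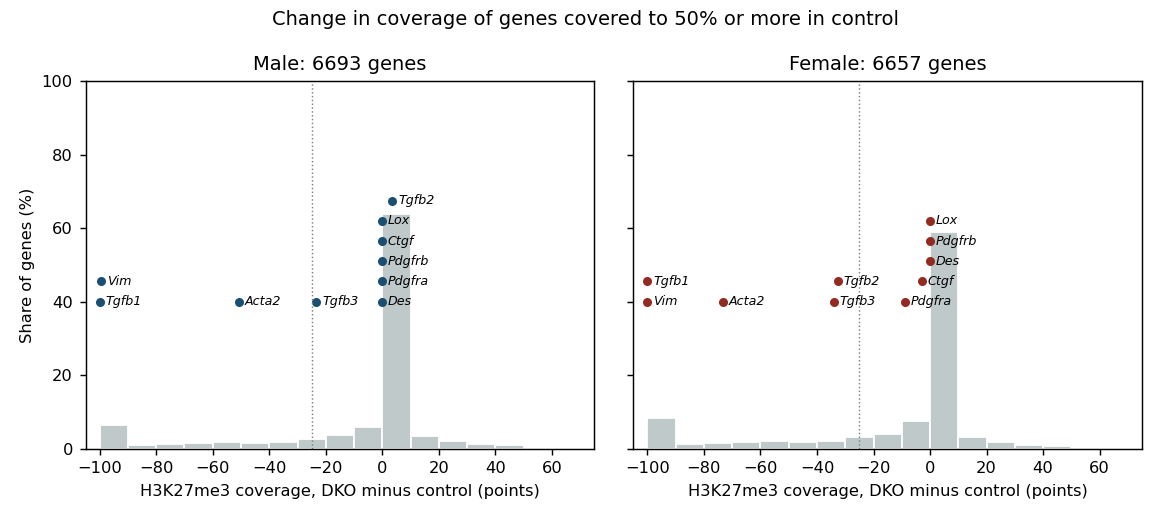
Change of H3K27me3 coverage from control to DKO liver in percentage points (horizontal axis), as a histogram of the share of all genes covered to 50% or more in control liver (vertical axis, %), with the 10 genes as dots whose height carries no value; the dotted line marks a loss of 25 points. Vim and Tgfb1 lie at the left end in both panels, and Des, Pdgfrb and Lox lie at 0.

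Acta2, Vim and Tgfb1 had coverage lower by 25 points or more in both sexes. Of 5610 genes covered to 50% or more in both control lists, 487 (8.68%) were lower in both sexes and 220 (3.92%) had a coverage of 0% in both DKO lists, as Vim and Tgfb1 did. Some marker genes of endothelial cells had lower coverage as well. Of 8 sinusoidal endothelial markers, 6 were covered to 50% or more in control male and 2 in DKO male liver, 5 in control female and 2 in DKO female liver. Pecam1, Cdh5, Stab1 and Stab2 were lower by 25 points or more in both sexes. Kdr and Clec4g stayed at 100% and Lyve1 at 0% in all 4 lists, and Tek was at 34.2% in control male, 10.9% in DKO male and 0% in both female lists. H3K27ac peaks within 10 kb of the 8 markers summed to 11 in control male, 38 in DKO male, 29 in control female and 38 in DKO female liver, beside sums over all genes of 34321, 58166, 53551 and 54543. A gained H3K27ac peak was found at all 8 markers in both sexes, beside 47.5% of all genes in males and 28.8% in females, and a lost one at 4 in males and 6 in females, beside 9.54% and 31.8%. The part of endothelial cells or of any other cell type in the values of Vim and Tgfb1 was not tested. Of 8 Kupffer cell and macrophage markers none was lower by this much in males and 1 in females (Csf1r). Of 6 lymphocyte markers 1 was lower in males (Ptprc) and 1 in females (Lck). Of 11 further stellate cell markers 1 was lower by 25 points or more in males (Rgs5) and 2 in females (Rgs5 and Dcn). In each sex 1 was higher by as much. Of the 11, 6 were covered to 50% or more in control male, 7 in DKO male, 6 in control female and 6 in DKO female liver. Lrat, Lhx2 and Hand2 were at 100% in each list.

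H3K27ac near the 10 genes was more often called in 3 of the lists than in control male liver. The 10 genes had 6 H3K27ac peaks within 10 kb in control male, 16 in DKO male, 17 in control female and 19 in DKO female liver, with a median of 0, 1, 1.5 and 1 per gene, beside 1, 2, 2 and 2 over all genes. A gained peak, called in DKO and overlapped by none in control liver, was found at 6 genes in males (Acta2, Vim, Pdgfra, Tgfb1, Tgfb2 and Ctgf) and at 6 in females (Acta2, Des, Pdgfra, Pdgfrb, Tgfb2 and Tgfb3). Over all genes the share with a gained peak was 47.5% in males and 28.8% in females. A lost peak was found at 0 of the 10 genes in males and at 3 in females (Vim, Tgfb1 and Tgfb3), beside 9.54% and 31.8% of all genes. Control male liver had the fewest H3K27ac peaks, 29359 against 49702 to 55930 in the other lists, and when every list was reduced to its widest 29359 peaks a gained peak was found at 3 genes in males and 3 in females. The male Acta2 peak was not among the widest peaks and dropped out, whereas the female one was kept. Of the 10 gained peaks in males, 7 overlapped a peak of the control female list, as did 49.4% of 30483 gained peaks genome-wide. Those at Acta2 and in the first part of Pdgfra, 2 of the 10, also overlapped a peak gained in females, as did 14.9% genome-wide. The Pdgfra peak was called in control female liver too, whereas the Acta2 peak was in neither control list.

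**Figure D4:**
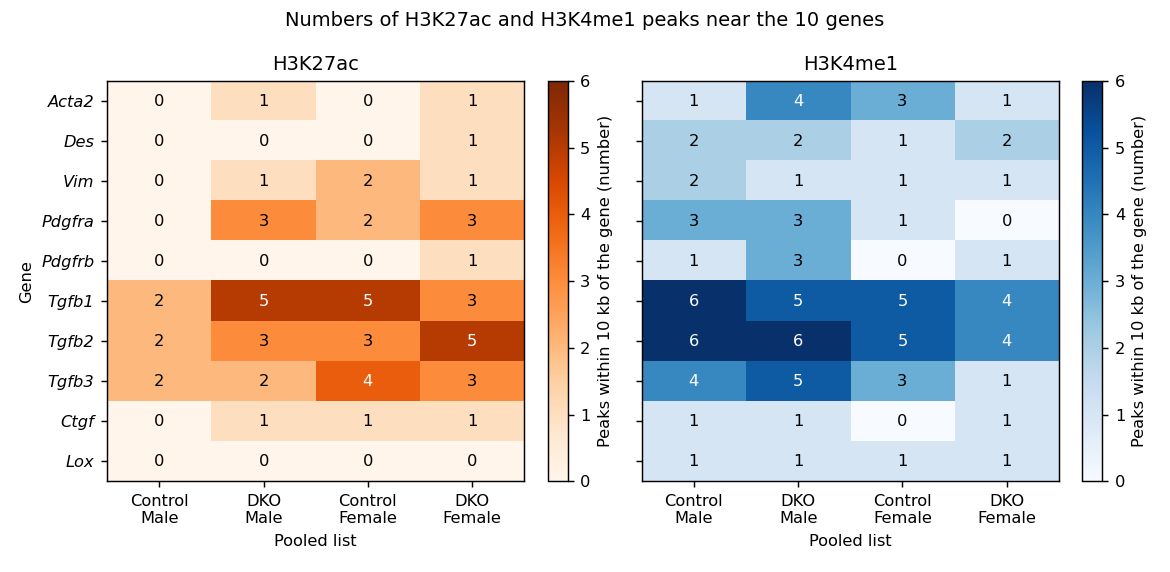
Number of H3K27ac peaks (left) and H3K4me1 peaks (right) within 10 kb of each of the 10 genes, with 1 column per pooled list and the number printed in each cell. Acta2 has 1 H3K27ac peak in both DKO lists and none in the control lists, and Lox has none in any list.

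H3K4me1 peaks near the 10 genes numbered 27 in control male, 31 in DKO male, 20 in control female and 16 in DKO female liver, with a median of 2, 3, 1 and 1 per gene, beside 2 in each list over all genes. All 10 genes had at least 1 peak in the male lists, 8 in control female and 9 in DKO female liver, beside 74.4%, 75.4%, 71.4% and 71.0% of all genes in control male, DKO male, control female and DKO female liver. A gained H3K4me1 peak was found at 6 genes in males (Acta2, Des, Pdgfra, Pdgfrb, Tgfb2 and Tgfb3) and at 5 in females (Acta2, Pdgfrb, Tgfb1, Tgfb2 and Ctgf), beside 44.6% and 39.8% of all genes. A lost peak was found at 4 genes in males (Des, Pdgfra, Tgfb1 and Tgfb2) and at 5 in females (Acta2, Pdgfra, Tgfb1, Tgfb2 and Tgfb3), beside 45.7% and 46.4%. The counts of genes with gained and lost H3K4me1 peaks thus stood near those of all genes. Of the 11 peaks lost in females, 10 overlapped a peak of the DKO male list, as did 52.5% of 20401 such peaks genome-wide.

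Since all 10 genes were covered by H3K27me3 in control liver, peaks near them largely lay inside regions of the same list. All 6 H3K27ac peaks in control male liver overlapped such a region, as did 10 of 16 in DKO male, 16 of 17 in control female and 13 of 19 in DKO female liver, beside 15.5%, 33.6%, 19.1% and 22.2% of all H3K27ac peaks of these lists. For H3K4me1 these were 27 of 27, 25 of 31, 18 of 20 and 11 of 16, beside 27.7%, 39.9%, 25.9% and 27.9%. The peaks outside the regions in DKO liver were near Acta2, Vim, Tgfb1 and Tgfb2. Peaks over Vim and Tgfb1, at 0% coverage in DKO liver, had no region to overlap.

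Of 25 pathway genes, from receptors and Smad proteins to latent Tgf-beta binding proteins and targets, 10 were covered to 50% or more in control male, 10 in DKO male, 9 in control female and 9 in DKO female liver. Coverage was lower by 25 points or more at 3 of the 25 (12%) in males and 2 (8%) in females, beside 6.08% and 7.59% of all genes. It was higher by as much at 4 (16%) and 2 (8%), beside 9.87% and 6.3%. The female shares stood near those of all genes, whereas the male shares were above them but rest on 3 and 4 genes. Eng, the endothelial co-receptor endoglin, was covered to 78.4% in control male, 37.4% in DKO male, 82.8% in control female and 0% in DKO female liver. Tgfbr3, the co-receptor betaglycan, was covered to 64%, 2.32%, 38.6% and 3.85% in the same order. Inhba, which encodes the beta A subunit of activin, went the other way, at 0% in both control lists, 56.7% in DKO male and 100% in DKO female liver.

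Among 12 relatives of the Pdgf, lysyl oxidase and Ctgf genes, 9 were covered to 50% or more in each control list, 8 in DKO male and 6 in DKO female liver. Loxl3, a lysyl oxidase-like enzyme, was the single gene of this list lower by 25 points or more in both sexes, with 100% in control male, 38.2% in DKO male, 100% in control female and 14.3% in DKO female liver. The ligand genes Pdgfa and Pdgfb were at 100% in both male lists. Pdgfb was at 100% in both female lists too, while Pdgfa was at 69.9% in control female and 49.3% in DKO female liver. Of 12 contractile and intermediate filament relatives, 10 were covered to 50% or more in each of the 4 lists and 0 changed by 25 points or more in the same direction in both sexes. Actg2 and Actc1, which encode enteric smooth muscle and cardiac actin, were at 100% throughout, unlike Acta2.

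**Figure D5:**
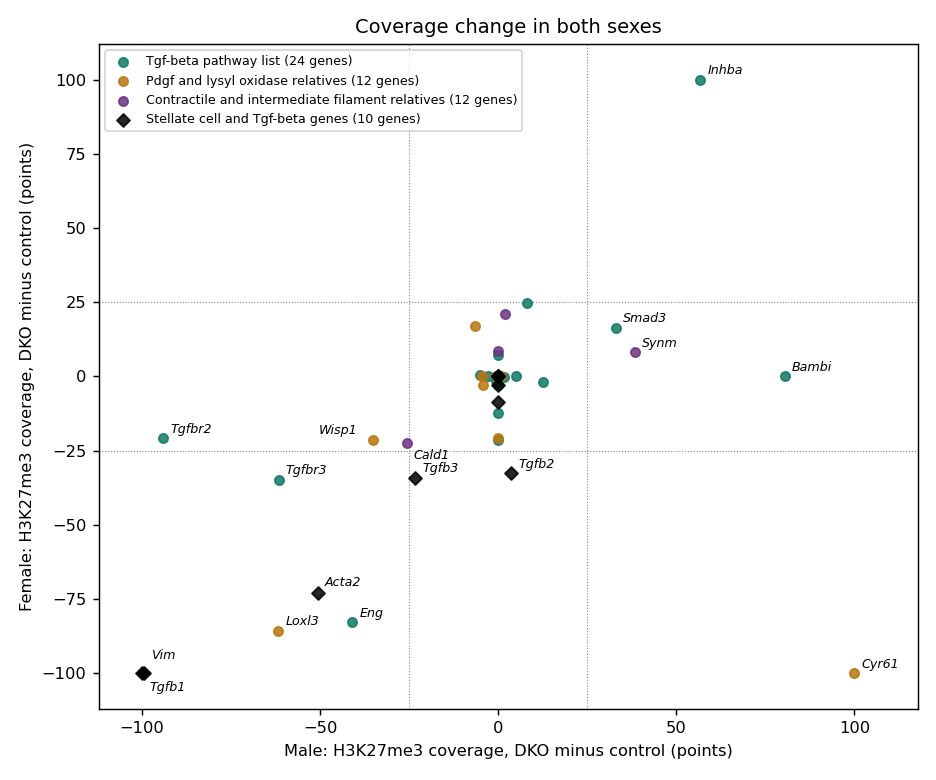
Change of H3K27me3 coverage from control to DKO liver in percentage points, males (horizontal axis) against females (vertical axis), for the 10 genes (diamonds) and the 3 lists of related genes (circles, 1 gene not drawn); dotted lines mark 25 points and names are given beyond them. Vim, Tgfb1, Acta2, Eng, Tgfbr3 and Loxl3 lie at the lower left, and Inhba at the upper right.

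The lists were checked against marker genes of the tissue. None of 10 hepatocyte genes was covered to 50% or more by H3K27me3 in either control list, but 4 were in DKO male and 3 in DKO female liver, Hnf4a, Apoa1 and Tat in both, and 6 to 8 of the 10 had H3K27ac at the start in each list. All of 6 neuronal genes were covered to 50% or more in all 4 lists. Peak lists cannot show whether Ezh2 was deleted in a sample. H3K27me3 regions numbered 15603 to 19796 per list and H3K4me1 peaks 51417 to 69797.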

How the data were processed

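The authors precipitated sonicated chromatin of individual livers with antibodies to each mark. They concatenated the 50 nt paired-end reads of a group and mapped them with Bowtie2 (2.3.2). Peaks were called with MACS2 (2.1.1, defaults) for H3K27ac and H3K4me1 and with SICER (1.1) for H3K27me3. The stated SICER settings were windows of 400 bp and gaps of up to 2400 bp. In the control female list, however, some regions closer than this limit were listed apart. Near Acta2, 1 such region ended at chr19:34310000 and the next began at 34312001. Region widths in that list may therefore not compare with those of the other lists. The authors deposited 12 lists, 1 per mark and group of 47 samples, which give the position and name of each peak in mm9 and no score, p-value or read count. All 498557 peaks fitted the chromosome lengths of NCBIM37, which is mm9, and its GENCODE M1 annotation gave gene spans, exons and starts. Starts were read as counted from 0, and the last base of each SICER window was added.

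Coverage is the percent of a gene span that H3K27me3 regions overlap, with 50% as the limit for a covered gene and 25 percentage points as that for a change. A peak was assigned to each gene whose span it overlapped or lay within 10 kb of, and counted as gained or lost where no peak of the other genotype overlapped it by 1 bp. The members and the lists of related and marker genes were chosen with earlier results of these data known. Related genes are named where coverage changed by 25 points or more in the same direction in both sexes, up to 6 per list, and otherwise with the 2 most covered genes in control male liver. Results for some genes of the lists are not reported here. With 1 list per group no test was made. Python 3.11.15, NumPy 2.4.6 and matplotlib 3.10.9 were used, and the overlap computations were tested on simulated data. The alternatives tried were wider and narrower windows, other limits and overlaps, merged peaks, equal numbers of the widest peaks, and peaks at other genes' starts left out.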

Additional observations from a re-analysis of the deposited data

Results flagged for a closer look

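At 4 genes a measure changed in opposite directions in males and females, by at least 25 points or 2 peaks in 1 of the sexes. Each direction rests on 1 list per group and the difference between the sexes was not tested. H3K27me3 coverage of Tgfb2 changed by 3.55 points in males and by -32.5 points in females. The number of H3K27ac peaks within 10 kb of Tgfb1 changed by 3 in males and by -2 in females, and by 1 and 0 with peaks within 1 kb merged, so that the opposite directions were no longer seen. The number of H3K4me1 peaks within 10 kb of Acta2 changed by 3 in males and by -2 in females, and near Tgfb3 by 1 in males and by -2 in females. Near Tgfb3 the male change was 0 with peaks within 1 kb merged and -2 with equal numbers of the widest peaks, which left no opposite directions. In females these H3K4me1 numbers were compared between the lists of 54798 control and 51417 DKO peaks, and in males between 69797 and 67913.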

How the results depend on the processing

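Depth is unknown, and the lists record whether a peak was called and not its strength. No paired analysis was possible because each group has 1 pooled list and no test was made.

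The direction of every called coverage change held under the 3 alternatives for coverage, except that 5 of these values came to 0 or near it. Over 3 kb on each side of the start the changes were 0 points for Acta2 in both sexes, 0 for Tgfb3 and -1.18 for Tgfb2 in females, so that the number of genes with lower coverage in females was 2 instead of 5. With equal numbers (15603) of the widest regions, Vim in females had a change of 0 points and Ctgf of -100 points. With a limit of 50 points, 3 genes were lower in females. With equal numbers (29359) of the widest H3K27ac peaks, gained peaks were found at 3 genes in males and 3 in females instead of 6 and 6, and the change near Tgfb2 in females turned from 2 to -3 peaks. Within the gene span alone, 3 genes had a gained H3K27ac peak and 3 a gained H3K4me1 peak in females. With peaks within 50 kb, lost H3K4me1 peaks were found at 8 genes in males and 9 in females and lost H3K27ac peaks at 6 in females. Within 10 kb of the start, lost H3K4me1 peaks were found at 2 genes in males. With peaks within 1 kb merged, a lost H3K4me1 peak was found at 1 gene in males and a lost H3K27ac peak at 1 in females. Narrower windows, fewer peaks and joined peaks leave fewer peaks to compare. The other counts, 64 of 76, stayed within 1.5 times the reported ones. Among them are counts that were 0 under every setting, which say little about stability. These are the genes with higher coverage in either sex and those with a lost H3K27ac peak in males.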

Other observations

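Genes of the related lists that changed by 25 points or more in only 1 sex, or in opposite directions, were looked at after their values were seen. Cyr61, a matricellular relative of Ctgf, was covered by H3K27me3 to 0% in control male, 100% in DKO male, 100% in control female and 0% in DKO female liver. Tgfbr2, the type II Tgf-beta receptor, was covered to 96.5% in control male, 2.4% in DKO male, 20.9% in control female and 0% in DKO female liver. Bambi, a pseudoreceptor that dampens Tgf-beta signalling, was covered to 19.5% in control male liver and to 100% in the other 3 lists. Rgs5, a stellate cell marker also looked at after its values were seen, was lower by 25 points or more in both sexes, covered to 100% in both control lists, 55.5% in DKO male and 36.6% in DKO female liver.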
